A study of Mus musculus with 48 samples.

Results

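Cytosolic ribosomal protein genes encode the proteins that, together with ribosomal RNA, form the small and large subunits of the ribosome. Genes were taken by symbol, as those whose symbol is Rpl or Rps followed by a number, with or without the endings a, x or l, and also Rplp0, Rplp1, Rplp2 and Rpsa. They were measured in mouse liver on Affymetrix expression arrays, on which a probe set is a group of probes that reports a transcript as a single signal. Only probe sets that carried a single gene symbol were used, and each gene was read from its brightest one. The rule found 46 of 18193 genes, 22 named Rps or Rpsa for the small subunit and 24 named Rpl for the large subunit.

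The ribosome makes all proteins of the cytosol, and the liver needs many ribosomes because it secretes most of the plasma proteins. Messenger RNAs of ribosomal proteins begin with a run of pyrimidines (C and T in the gene), the 5 prime terminal oligopyrimidine or TOP motif. Through it, the kinase complex mTORC1, which senses amino acids and insulin, controls how strongly they are translated. That control acts largely on translation and on mRNA stability, whereas an array reads only the amount of mRNA. Ribosomal protein genes have many processed pseudogenes, so probes for them often match more than a single locus.

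The mice were male C57BL/6J animals with no genetic change, and all 48 were first fed the L-P/C-HF diet, a high-fat diet with a low ratio of protein to carbohydrate, for 10 weeks. Per the study's methods, the animals with the poorest glucose tolerance after that feeding were the ones kept, so that every group consisted of diet-induced obese mice. Of these, 24 stayed on L-P/C-HF and 24 were switched to H-P/C-HF, which has the same share of fat but a high ratio of protein to carbohydrate, and 12 of each were killed after 2 days (2-d) and 12 after 4 weeks (4-wk). The 4-wk mice were therefore also older and killed on another day. Mice on L-P/C-HF, HFHC in the sample labels, are called low-ratio mice here, and those on H-P/C-HF, HPHC in the labels, high-ratio mice; the diets were told apart by the label in which high protein is spelled out.

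Liver total RNA was hybridised with 1 array per mouse, and the deposited log2 values had array medians of 6.73 to 6.91. Array B25, of an high-ratio 2-d mouse, was left out, as the study did after its quality tests, which leaves 47 arrays and 11 mice in that group. The number of arrays limits the precision. Defining transcripts of hepatocytes were near the top of the scale on all 47 arrays, with Alb at 14.38 to 14.70, Apoa1 at 14.28 to 14.53 and Ttr at 14.20 to 14.54. RNA quality was read as the 3 prime minus 5 prime log2 signal of the control sets for beta-actin and Gapdh, where a higher value means less signal from the 5 prime ends. It ran from 0.29 to 0.90 (median 0.44) in low-ratio 2-d mice and from 0.34 to 0.75 (median 0.45) in high-ratio 2-d mice, against 0.17 to 0.39 (median 0.24) in low-ratio 4-wk mice and 0.14 to 0.51 (median 0.25) in high-ratio 4-wk mice. The quality value was thus higher at 2-d than at 4-wk and had nearly equal means in the diets within each duration, 0.478 and 0.477 at 2-d, and 0.244 and 0.273 at 4-wk.

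Of the 80 symbols in a list of the standard ribosomal proteins of mammals, 42 were found by the rule. A further 27 occur only in probe sets that carry several symbols, usually together with pseudogenes, and no gene was named from those. Of the rest, 9 symbols are not listed and 2, Fau and Rps3a1, have a probe set of their own but names outside the rule. The remaining 4 members are the paralogs Rpl3l, Rpl39l, Rps4l and Rps27l. Rpl5 and Rplp1 are both among the genes with several symbols, so neither has a value here. Rpl5 is listed in the study's supplement for 2-d, and the counts here do not cover it. Of the 46 genes, 23 had 1 usable probe set and 23 had more, up to 6. By the naming system of the array, 14 of the brightest probe sets are marked as matching alternative transcripts, 14 as holding some probes that match other sequences and 2 as shared with transcripts of other genes, and 16 carry no mark.

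RefSeq (GRCm38.p6) gives a transcript start for 40 of the 46 genes, with 48 starts in all, and the bases around the start show how far the annotated start carries the TOP motif. For each gene below, the 15 bases before and the 15 from the annotated start on are given 5 prime to 3 prime on the transcribed strand, and capitals mark the longest unbroken run of C and T that reaches within 5 bases of the start. Rps3, Rps9 and Rpsa are shown because they changed with time in the results that follow, as did Rpl8, which is not shown. Rpl7a, Rpl35 and Rps6 are examples of long runs. The runs of 20 bases in Rpl27a and 14 in Rpl14 are not shown.
Rps3 (chr7:99483695-99483724, minus strand): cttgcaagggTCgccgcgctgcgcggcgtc
Rps9 (chr7:3704026-3704055, plus strand): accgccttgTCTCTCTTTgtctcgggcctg
Rpsa (chr9:120127751-120127780, plus strand): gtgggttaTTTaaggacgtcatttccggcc
Rpl7a (chr2:26910792-26910821, plus strand): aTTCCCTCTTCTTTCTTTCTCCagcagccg
Rpl35 (chr2:39005117-39005146, minus strand): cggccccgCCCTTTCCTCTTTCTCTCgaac
Rps6 (chr4:86857353-86857382, minus strand): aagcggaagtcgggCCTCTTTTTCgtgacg

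The run was 21 bases long in Rpl7a, 18 in Rpl35, 10 in Rps6 and 9 in Rps9, but only 3 in Rpsa and 2 in Rps3. A run of at least 8 bases was found at 17 of the 48 starts of ribosomal protein genes (35.4%) and at 3194 of 32851 starts in the whole table (9.72%). A purine run of the same length, which is the same search on the other strand, was found at 1 of 48 (2.08%) and at 3564 of 32851 (10.8%). In the window from 250 bases before to 50 bases after the start, searched on both strands, CCGGAAG, a form of the ETS binding motif, stood in 20 of 48 (41.7%) against 8.86% of all starts. AAGATGG, the core of the YY1 motif, stood in 7 of 48 (14.6%) against 6.34%, and GGGCGG, the GC box, in 24 of 48 (50%) against 35.7%. These are matches of letters at annotated starts, which can lie some bases away from the true start, and they describe the genes, not their binding. The motifs as spelled here do not contain one another, although their matches may lie over the same bases.

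Signals of the brightest probe sets were high in general, with 35 of 46 genes at a mean log2 value of 10 or more over the 47 arrays. Because each probe set binds its target with its own strength, signals of different probe sets do not rank the transcripts. The highest mean signals were those of Rps29 (13.31), Rps2 (13.28) and Rpl7a (13.14), and in Rps2, which lies near the mRNA entry of the small subunit, all 47 arrays were between 13.08 and 13.38. The lowest were those of Rpl39l (4.46), Rps16 (4.86) and Rpl14 (5.68). Rps16 and Rpl14 belong to every ribosome, and their only single-symbol probe sets are these dim ones. The 11 genes below 10 are kept in all counts.

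Paralog pairs could be set side by side within a gene over groups, not between genes. Rps27l, a copy of Rps27 that p53 can induce, had group medians of 12.39 to 12.44, and Rps27 had 8.27 to 8.32. The probe set read for Rps27l is among those marked as holding some probes that match other sequences. Rpl3l, a copy of Rpl3 used mainly in heart and skeletal muscle, had group medians of 6.76 to 6.95, while Rpl3 has no usable probe set. Rpl39l, a copy of Rpl39 known from the testis, lay at 4.24 to 4.70 on all 47 arrays, and Rpl39 had group medians of 8.69 to 8.80. Rps4l, a copy of Rps4x, varied most of all 46 genes between mice within groups, with a residual SD of 0.39, followed by Rpl12 (0.34) and Rpl14 (0.27). In high-ratio 2-d mice the lowest Rps4l value was 7.78, the median 8.73 and the highest 9.98. Rps4x on the same arrays ran from 12.30 to 12.59. The median residual SD was 0.14 over the ribosomal protein genes and 0.19 over all genes, both on the log2 scale.

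Ribosomal protein genes deviated together in some mice and were split in others. The mean over the 46 genes, taken as a log2 difference from the mean over 47 arrays, ran from -0.23 to 0.38 (median 0.02) in low-ratio 2-d mice and from -0.13 to 0.10 (median -0.04) in high-ratio 2-d mice. It ran from -0.22 to 0.17 (median 0.03) in low-ratio 4-wk mice and from -0.08 to 0.13 (median -0.01) in high-ratio 4-wk mice. All 4 groups overlapped widely, and the SD between mice was 0.157, 0.0681, 0.111 and 0.0716 in the same order.

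**Figure D1:**
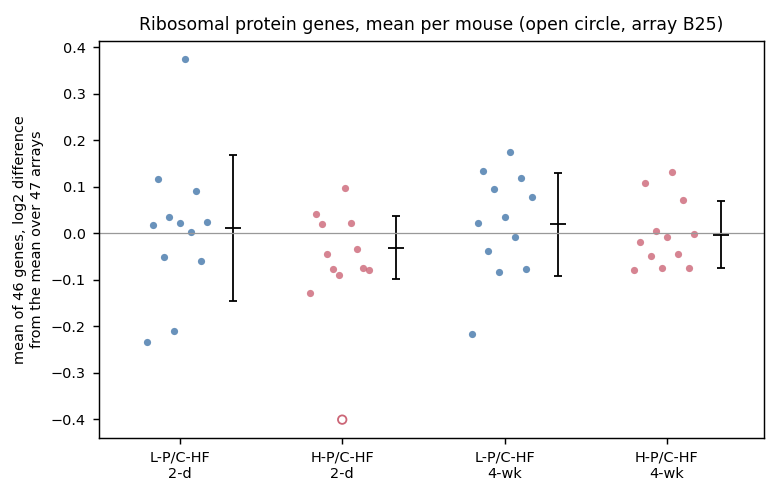
Mean over 46 ribosomal protein genes in each mouse, as a log2 difference from the mean over 47 arrays, for the 4 groups. Points are mice, bars give the mean and SD of a group, and the open circle is array B25, at -0.40, which is left out of the bars. The group ranges overlap, and the highest point is array A09 at 0.38.

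The largest deviation was in array A09 of the low-ratio 2-d group, at 0.38 above the overall mean. There, 44 of 46 ribosomal protein genes lay above the median of the other mice of the group, against 43.8% of all genes. In array A06 of the same group 42 of 46 lay below (mean -0.23), while 33.9% of all genes lay above, and in A02 of that group 40 lay below (mean -0.21), while 39% of all genes lay above, so that in both arrays most other genes were low too. In A24 of the low-ratio 4-wk group 42 lay below (mean -0.22), with 52.4% of all genes above. In A15 of the latter group 43 lay above (mean 0.17), against 52.9% of all genes. In the left-out array B25, 44 of 46 lay below the group median, with a mean of -0.40, while 34.5% of all genes lay above. The RNA quality value was 0.31 in A09, 0.62 in A06, 0.735 in A02, 0.26 in A24, 0.23 in A15 and 0.51 in B25, and its part in these deviations was not tested. Other arrays were split. In A01 of the low-ratio 2-d group, with a quality value of 0.90, 26 genes lay above and 20 below. In B38 of the high-ratio 4-wk group 22 lay above and 21 below. In the low-ratio diet, 36 of 46 genes (78.3%) had a larger SD at 2-d than at 4-wk, as did 63.5% of all genes. In the high-ratio diet the shares were 47.8% and 44%.

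The first comparison asked whether ribosomal protein mRNA differed between the diets, at 2-d and at 4-wk. H-P/C-HF has more protein and less carbohydrate, and these cannot be told apart. Per the study, high-ratio mice also took in less energy over the first 2 days and gained less weight by both durations. None of the 46 genes passed at either duration in limma's moderated test, fitted across 45037 probe sets and with Benjamini-Hochberg adjustment at 0.05. At 2-d, 3 of 18193 genes passed (0.0165%), and at 4-wk no gene did (0%). The study, with another test and a p threshold for which it states no adjustment, reported transcripts that differed between the diets at both durations. The differences (high-ratio minus low-ratio) were small at both durations. They ran from -0.13 to 0.15 at 2-d and from -0.16 to 0.08 at 4-wk on the log2 scale. The 95% intervals are for single genes and were not adjusted for the number of genes. Their outermost limits, which come from different genes, were -0.32 and 0.46 at 2-d and -0.34 and 0.28 at 4-wk. For the 35 genes with a mean log2 value of 10 or more, the outermost limits were -0.27 and 0.21 at 2-d and -0.24 and 0.21 at 4-wk. Changes larger than the estimate of a gene, up to the limits of its interval, are not excluded.

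At 2-d, 39 of 46 genes (84.8%) were lower in high-ratio mice, as were 46.8% of all genes. The median difference was -0.05 over the ribosomal protein genes and 0.01 over all genes. It was -0.04 over the small subunit genes and -0.05 over the large subunit genes. Since the genes deviate together in some mice, the count of 39 does not rest on 39 separate observations. Without A01, A09 and A24, which the study's quality tests had also marked, 29 of 46 were lower and the median was -0.01. With B25 included, 43 of 46 were lower and the median was -0.08. All 12 Kupffer cell and macrophage markers were also lower in high-ratio mice at 2-d (median -0.13, none at an unadjusted p under 0.05), and their part in the shift was not tested. The other single-symbol probe sets of the same genes, measured on the same arrays, had the sign of the brightest in 42 of 54 cases.

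Rpl7, a large subunit protein, gave the smallest p at 2-d. Its log2 signal had a lowest value of 12.22, a median of 12.47 and a highest value of 12.68 in low-ratio mice, and 12.26, 12.36 and 12.46 in high-ratio mice. All 11 high-ratio mice lay below the low-ratio median, but their range lies inside that of the low-ratio mice. The log2 difference was -0.10 ± 0.051 (SE; unadjusted p = 0.0442, adjusted p = 0.9998 by limma). Rpl7 was the only member lower at an unadjusted p under 0.05, against 1.62% of all genes, and none was higher, against 2.04%. By the same fit Rpl6 was at -0.10 ± 0.050, Rps7 at -0.10 ± 0.050 and Rpl39 at -0.10 ± 0.051, with 95% intervals that include 0. The 7 genes above 0 included Rpl3l (0.15 ± 0.080), Rps4l (0.15 ± 0.153), Rps2 (0.03 ± 0.034) and Rpl37a (0.01 ± 0.055, below 0 with B25 included), and none of the 7 passed.

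At 4-wk, 35 of 46 genes (76.1%) were lower in high-ratio mice, as were 59.6% of all genes, and the median difference was -0.02 over both the ribosomal protein genes and all genes. Among the other probe sets, 26 of 54 had the sign of the brightest. Rpl3l gave the smallest p, at a mean signal of 6.85, within the range of the array medians (6.73 to 6.91). Its signal ran from 6.71 to 7.20 (median 6.87) in low-ratio mice and from 6.32 to 7.09 (median 6.76) in high-ratio mice. Of the high-ratio mice, 9 of 12 lay below the low-ratio median. The ranges overlap. The log2 difference was -0.16 ± 0.079 (SE; unadjusted p = 0.0473, adjusted p = 0.999 by limma). Rpl3l was the only member lower at an unadjusted p under 0.05 (2.16% of all genes), and none was higher (0.83%).

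Next in order at 4-wk were Rpl6 (-0.09 ± 0.048), Rpl39 (-0.08 ± 0.050) and Rps15 (-0.06 ± 0.049) on the lower side, and Rpl27a (0.08 ± 0.095), Rps29 (0.03 ± 0.052), Rps20 (0.03 ± 0.067) and Rpl39l (0.02 ± 0.050) on the higher side. All of their 95% intervals include 0. Kupffer cell and macrophage markers, too, were lower at 4-wk in the high-ratio group, 11 of 12 of them (median -0.33), against 59.6% of all genes. By limma, 5 of 12 were lower at an unadjusted p under 0.05, against 2.16% of all genes, and none passed after adjustment. Also lower were 8 of 8 sinusoidal endothelial, 7 of 8 stellate cell, 4 of 5 cholangiocyte, 8 of 11 lymphocyte and 4 of 4 erythroid markers. Of the hepatocyte markers, 3 of 11 were lower. None in these other lists had an unadjusted p under 0.05. The part of all these markers in the differences of the ribosomal protein genes was not tested.

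**Figure D2:**
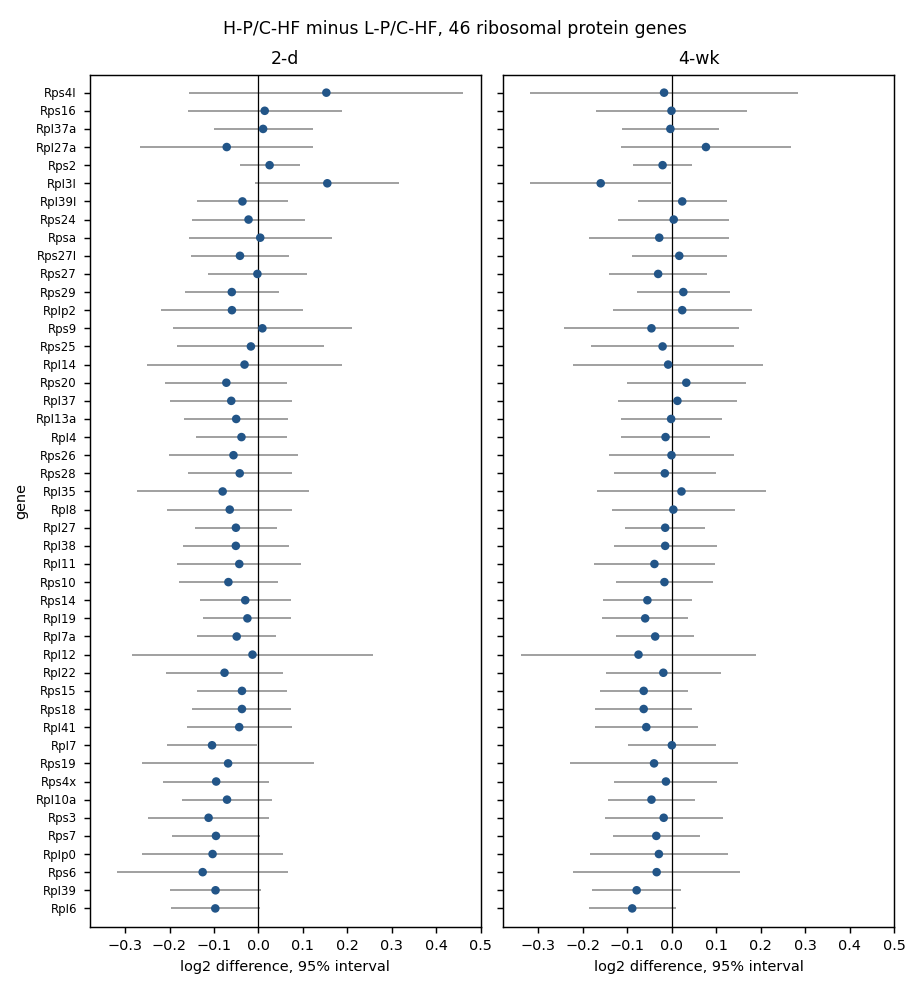
Log2 difference of each of the 46 ribosomal protein genes between the diets (high-ratio minus low-ratio) at 2-d and at 4-wk. Points are limma estimates and lines their 95% intervals, and genes are ordered by the mean of both differences. No gene passed after adjustment, and most points lie slightly below 0 at 2-d (39 of 46).

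The difference of the diet effects between the durations (4-wk minus 2-d) was tested directly in the same limma fit. None of the 46 genes passed, and no gene on the array did (0%). The median was 0.03 over the ribosomal protein genes and -0.02 over all genes, and it turned to -0.03 without A01, A09 and A24. Rpl3l was at -0.31 ± 0.113 (SE; unadjusted p = 0.0073, adjusted p = 0.9999), with medians of 6.77 and 6.95 at 2-d and of 6.87 and 6.76 at 4-wk in low-ratio and high-ratio mice. It was the only member at an unadjusted p under 0.05 on the lower side, against 1.08% of all genes, and none was on the higher side, against 0.407%. Rpl7 (0.10 ± 0.071), Rps29 (0.09 ± 0.074) and Rps2 (-0.05 ± 0.047) had intervals that include 0.

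The second comparison set 4-wk against 2-d mice within each diet, where duration, age, day of death and handling cannot be told apart. Per the study's methods, the 4-wk mice also had a later glucose tolerance test, after an overnight fast. In low-ratio mice, Rps3 and Rps9 rose and Rpsa fell. In high-ratio mice, Rps3 and Rpl8 rose and Rpsa fell. RNA quality differed between the durations as well, and none of these calls held with it as a covariate. The calls in low-ratio mice were also lost in a fit of those groups alone, by one-way ANOVA and with the probe sets of a gene averaged. All of these proteins but Rpl8 belong to the small subunit. The 2 genes that rose in each diet are 4.35% of the members, against 4.76% of all genes in low-ratio mice and 4.16% in high-ratio mice. The 1 gene that fell in each is 2.17% of the members, against 1.25% and 1.87% of all genes. The shares of ribosomal protein genes that changed were thus near those of all genes. The median time difference was 0.02 in each diet over the ribosomal protein genes, and 0.01 and -0.02 over all genes.

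**Figure D3:**
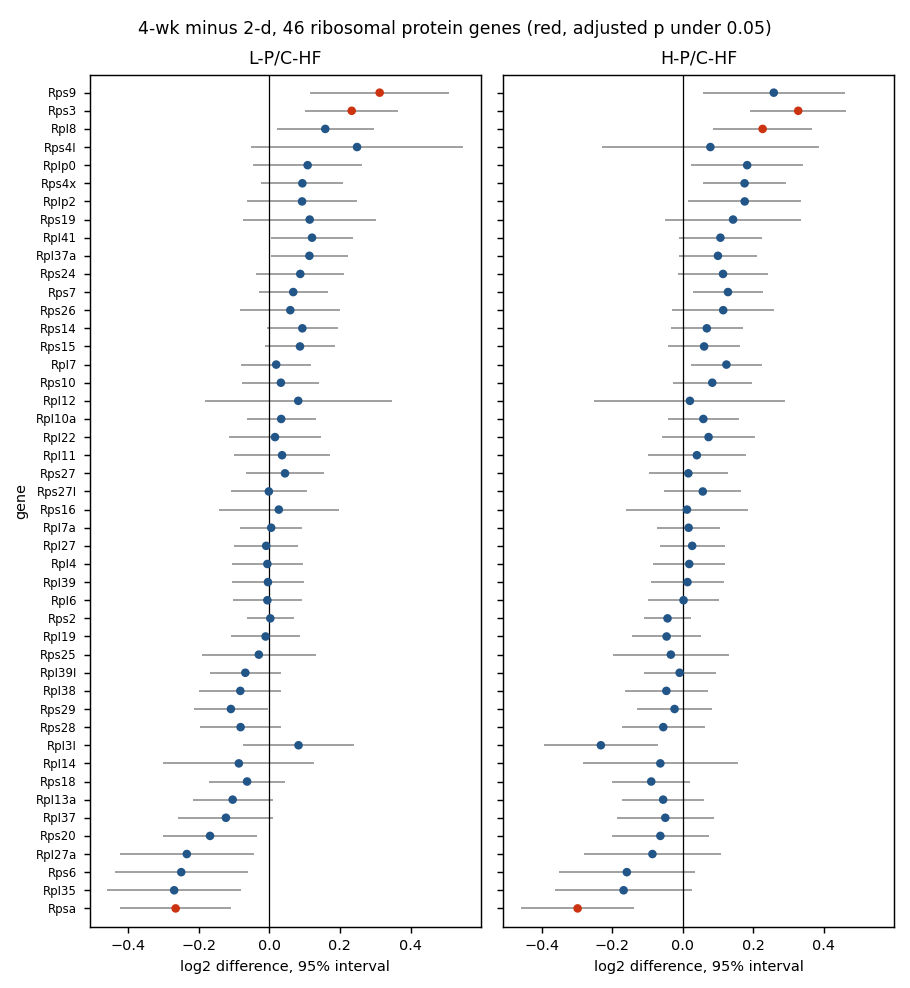
Log2 difference of each of the 46 ribosomal protein genes between the durations (4-wk minus 2-d) in low-ratio mice and in high-ratio mice. Points are limma estimates, lines their 95% intervals, and red points had an adjusted p under 0.05. Rps3, Rps9 and Rpl8 stand at the upper end of the order and Rpsa at the lower end.

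Rps3, a small subunit protein at the channel where mRNA enters, had the smallest p in both diets. Its gene spans chr7:99477896-99483709 in RefSeq (GRCm38.p6). In low-ratio mice the signal had a lowest value of 11.71, a median of 12.22 and a highest value of 12.56 at 2-d, and 12.22, 12.39 and 12.56 at 4-wk. In high-ratio mice these values were 11.76, 12.07 and 12.23 at 2-d, and 12.16, 12.38 and 12.59 at 4-wk. The ranges overlap in both diets, and 11 of 12 low-ratio and 12 of 12 high-ratio mice at 4-wk lay above the 2-d median of their diet. The log2 difference was 0.23 ± 0.066 in low-ratio mice (SE; adjusted p = 0.0191 by limma) and 0.33 ± 0.067 in high-ratio mice (adjusted p = 0.000967 by limma). With the RNA quality covariate the differences were -0.004 (adjusted p = 0.999) and 0.12 (adjusted p = 0.367), and in a fit of the low-ratio groups alone the adjusted p was 0.0742. The rise was not shared by the 2 dimmer probe sets of Rps3. The one with a mean signal of 8.33 was at -0.17 and -0.20, and the one at 7.27 was at 0.03 and 0.15, none with an adjusted p under 0.05.

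Rps9, a small subunit protein that binds early in assembly, lies at chr7:3703954-3706897. In low-ratio mice its signal had a lowest value of 11.20, a median of 12.03 and a highest value of 12.53 at 2-d, and 11.87, 12.29 and 12.43 at 4-wk. In high-ratio mice these values were 11.69, 11.93 and 12.18 at 2-d, and 11.94, 12.21 and 12.38 at 4-wk. The 4-wk mice overlap with the 2-d mice in both diets, and the low 2-d values in low-ratio mice came from 3 mice at 11.49 or lower. These were A01, A02 and A06, with the highest RNA quality values of that group (0.90, 0.735 and 0.62), and the part of RNA quality in them was not tested. The difference was 0.31 ± 0.098 in low-ratio mice (SE; adjusted p = 0.0398 by limma, and 0.0558 with B25 included) and 0.26 ± 0.10 in high-ratio mice (adjusted p = 0.123 by limma). The brightest probe set of Rps9 is marked as shared with transcripts of other genes. The other 2 had log2 differences of -0.14 and -0.05 in low-ratio mice and of -0.20 and 0.09 in high-ratio mice, none of which passed.

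Rpl8, which reaches the peptidyl transferase centre of the large subunit, lies at chr15:76904071-76906318. Its signal had a lowest value of 11.92, a median of 12.06 and a highest value of 12.17 in high-ratio mice at 2-d, and 12.06, 12.28 and 12.54 at 4-wk. In low-ratio mice these values were 11.73, 12.13 and 12.59 at 2-d, and 11.92, 12.31 and 12.47 at 4-wk. The overlap in high-ratio mice is small, with 11 of 12 mice at 4-wk above the 2-d median and none below it. The difference was 0.23 ± 0.070 in high-ratio mice (SE; adjusted p = 0.0375 by limma, and 0.0529 when each array was centred on its median). In low-ratio mice it was 0.16 ± 0.069 (adjusted p = 0.19 by limma). Rpl8 has no other usable probe set.

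Rpsa, a small subunit protein first known as the laminin receptor, lies at chr9:120127766-120132369. In low-ratio mice its signal had a lowest value of 11.80, a median of 12.19 and a highest value of 12.73 at 2-d, and 11.53, 12.01 and 12.25 at 4-wk. In high-ratio mice these values were 12.07, 12.18 and 12.67 at 2-d, and 11.77, 11.93 and 12.23 at 4-wk. The ranges overlap, and 11 of 12 mice at 4-wk lay below the 2-d median in each diet. Rpsa fell by 0.27 ± 0.078 in low-ratio mice (SE; adjusted p = 0.0264 by limma) and by 0.30 ± 0.080 in high-ratio mice (adjusted p = 0.0131 by limma). Without A01, A09 and A24 the difference in low-ratio mice was -0.13 (adjusted p = 0.289) and that in high-ratio mice kept its adjusted p under 0.05. The other probe set of Rpsa, with a mean signal of 4.54, was at 0.11 and 0.10 and did not pass.

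**Figure D4:**
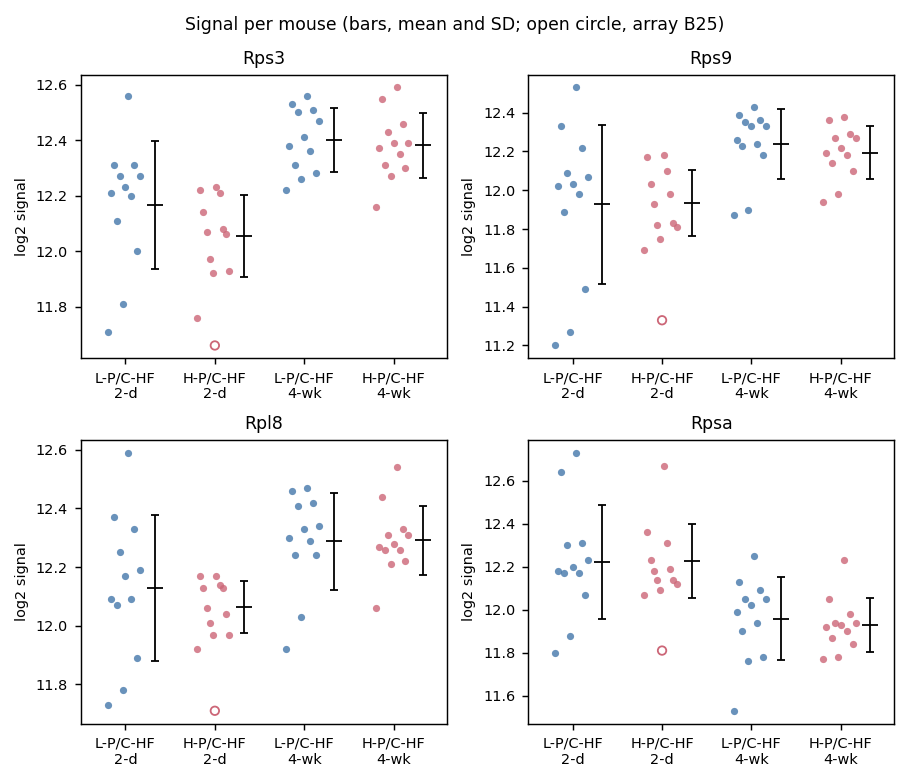
Log2 signal of Rps3, Rps9, Rpl8 and Rpsa in each mouse of the 4 groups. Points are mice, bars give the mean and SD of a group, and the open circle is array B25, left out of the bars. Rps3, Rps9 and Rpl8 are higher and Rpsa is lower at 4-wk than at 2-d, with overlapping ranges.

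Counting also those that passed, 5 members were higher at 4-wk in low-ratio mice at an unadjusted p under 0.05 (10.9%, against 10.6% of all genes) and 6 were lower (13%, against 5.22%). In high-ratio mice 8 were higher (17.4%, against 9.75%) and 2 were lower (4.35%, against 7.75%). Rpl35, which sits beside the exit tunnel of the large subunit, was at -0.27 ± 0.094 in low-ratio mice (SE; adjusted p = 0.0738 by limma), with medians of 12.17 at 2-d and 11.96 at 4-wk. Rpl3l was at -0.23 ± 0.080 in high-ratio mice (SE; adjusted p = 0.0713 by limma). Rps4x was at 0.09 ± 0.058 in low-ratio mice and 0.17 ± 0.059 in high-ratio mice, while its copy Rps4l was at 0.25 ± 0.150 and 0.08 ± 0.153, and none of these passed.

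RNA quality moved with time, as the group ranges given above show. With the quality value of each array as a covariate in the same fit, none of the 46 genes passed in either diet, and 464 probe sets passed in low-ratio mice and 622 in high-ratio mice, against 3096 and 3012 of 45037 without it. Beside the values of Rps3 given above, the time difference of Rps9 was then -0.05 in low-ratio and -0.06 in high-ratio mice, and that of Rpl8 was -0.05 and 0.04. Rpsa stayed lower, at -0.17 and -0.21. The median over the 46 genes was -0.06 in low-ratio and -0.03 in high-ratio mice with the covariate. The median standard error of the 46 genes was 0.065 and 0.0636 with the covariate, against 0.0577 and 0.059 without it. Because the quality value differed between the durations, RNA quality and time cannot be told apart here. The diet medians were -0.05 at 2-d and -0.01 at 4-wk with the covariate.

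**Figure D5:**
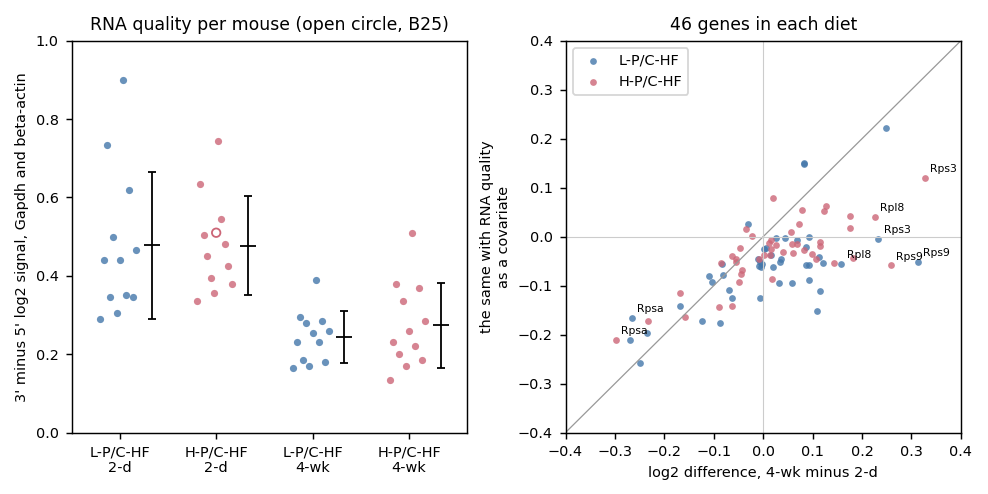
Left, the 3 prime minus 5 prime log2 signal of Gapdh and beta-actin in each mouse, with the mean and SD of each group and array B25 as an open circle. Right, the 4-wk minus 2-d log2 difference of each of the 46 genes in each diet without (x axis) and with (y axis) that value as a covariate, where the grey diagonal marks equal values. The 2-d mice reach 0.90 and the 4-wk mice 0.51, and Rps3, Rps9 and Rpl8 lie below the diagonal.

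Markers of other liver cells also moved with time in the fit without the RNA quality covariate, and were not followed with it. Kupffer cell and macrophage markers rose for 11 of 12 genes in low-ratio mice and for 9 of 12 in high-ratio mice, sinusoidal endothelial markers for 7 and 8 of 8, and stellate cell markers for 5 and 5 of 8. Of all genes, 4.76% rose in low-ratio mice and 4.16% in high-ratio mice. The mean log2 signal of the macrophage list ran from 7.98 to 9.16 at 2-d and from 8.79 to 10.19 at 4-wk in low-ratio mice, and from 8.04 to 8.88 and from 8.14 to 9.69 in high-ratio mice. That of the endothelial list ran from 7.67 to 8.36 and from 7.93 to 8.96 in low-ratio mice, and from 7.68 to 8.23 and from 7.85 to 8.91 in high-ratio mice. For the stellate list it ran from 8.61 to 9.15 and from 9.05 to 9.37 in low-ratio mice, and from 8.54 to 8.97 and from 8.89 to 9.29 in high-ratio mice. None of the markers is at 0, a value that this log2 scale does not contain. In bulk liver, more cells of a type and more RNA per cell cannot be told apart, and the part of these markers in the time differences of the ribosomal protein genes was not tested. Of the 11 lymphocyte, 5 cholangiocyte and 4 erythroid markers measured, none passed in either diet. Of the 11 hepatocyte markers 1 fell in each diet (9.09%, against 1.25% and 1.87% of all genes), the transcription factor Hnf4a (-0.29 and -0.30).

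Other parts of the translation machinery were described by the same counts. None of the genes in the 4 lists that follow passed in either diet comparison or in the difference of diet effects. Of 18 translation factors and other genes with TOP mRNAs, 1 rose with time in low-ratio mice (5.56%) and 2 in high-ratio mice (11.1%), where 4.76% and 4.16% of all genes rose. Naca, a chaperone that meets the new chain at the ribosome, rose by 0.21 and 0.23 on the log2 scale, and Eif3l, an initiation factor subunit, rose by 0.33 in high-ratio mice and was at 0.26 in low-ratio mice (adjusted p = 0.0887 by limma). The median diet difference of this list was -0.04 at 2-d and -0.01 at 4-wk.

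Of 35 genes of ribosome assembly and RNA polymerase I, 2 rose and 2 fell with time in low-ratio mice (5.71% each way), and 1 rose (2.86%) and 2 fell (5.71%) in high-ratio mice, where 1.25% and 1.87% of all genes fell. Polr1a, the largest subunit of RNA polymerase I, which makes the ribosomal RNA precursor, fell by 0.34 in low-ratio mice and by 0.30 in high-ratio mice. Tsr1, a factor in small subunit maturation, fell by 0.41 in low-ratio mice, and Nop58, a core protein of small nucleolar particles, fell by 0.28 in high-ratio mice. Sbds, which helps to release Eif6 from new large subunits, rose by 0.25 in low-ratio mice, and Eif6 itself rose by 0.33 in high-ratio mice.

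Of 19 genes of mTORC1 and translation control, 1 fell with time in low-ratio mice (5.26%, against 1.25% of all genes), and none passed in high-ratio mice. The gene that fell was Eif4ebp1, the repressor of cap-dependent translation (-0.21). Larp1, which binds the TOP motif, was at -0.18 in each diet (adjusted p = 0.175 and 0.204 by limma). In the diet comparison Mlst8, a subunit of mTORC1, was at -0.13 at 2-d and -0.12 at 4-wk, with unadjusted p of 0.0589 and 0.0834 by limma. Of 76 mitochondrial ribosomal protein genes, 3 rose with time in low-ratio mice (3.95%) and 4 in high-ratio mice (5.26%), shares near those of all genes, and none fell. Mrpl50 rose by 0.44 and 0.34 and Mrps23 by 0.26 and 0.27. The median diet difference of the mitochondrial genes was -0.01 at 2-d, where that of the 46 cytosolic genes was -0.05, and -0.004 at 4-wk.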

How the data were processed

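The data are 48 arrays of mouse liver RNA. The deposited values are on a log2 scale and were made by the authors with RMA (which corrects the background, normalizes the arrays to each other and summarises the probes of a set). The log base was read from their range. Gene symbols came from GEO's platform annotation and sequences from RefSeq (GRCm38.p6). After leaving out 64 controls, 45037 of 45101 probe sets were tested. A linear model with 1 coefficient per group was fitted to 47 arrays by limma 3.58.1 in R 4.3.3 (lmFit, eBayes with a trend), two-sided, with Benjamini-Hochberg adjustment within each comparison at 0.05. "Rose", "fell" and "passed" refer to that threshold. The procedure was tested on simulated data. The study used one-way ANOVA with Global Error Assessment, which was not run here.

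The members, lists and tests were chosen with earlier results of these data known. Named are the members with the smallest p each way in each comparison, the brightest, dimmest and most variable, the paralog pairs and every member called; from each list, at most 3 genes by p. Alternatives covered the arrays, scaling, RNA quality, probe set choice and test. Same-numbered mice of different groups did not deviate together (median correlation -0.02 over 69 pairs, 22 of them over 0.1).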

Additional observations from a re-analysis of the deposited data

How the results depend on the processing

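No ribosomal protein gene passed in the diet comparisons or in their difference under any alternative tried, ordinary one-way ANOVA included. Over time, 3 genes passed in each diet. The count in low-ratio mice was 1 with arrays centred on their median, 9 with cyclic loess, 0 with a separate fit for each comparison, 0 with the RNA quality covariate, 0 by one-way ANOVA, 1 with the brightest probe set without a mark in its name and 0 with the probe sets of a gene averaged. In high-ratio mice it was 8 without A01, A09 and A24, 10 with array weights over 48 arrays, 5 with cyclic loess, 5 with the brighter probe sets alone, 9 with a separate fit, 0 with the RNA quality covariate, 9 by ANOVA, 1 with the brightest unmarked probe set and, over the 110 probe sets with several symbols (chosen after seeing the data), 5. With a replicate block the count was 3 in low-ratio and 5 in high-ratio mice; the replicate numbers do not pair the mice. Causes of these shifts were not tested.

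Over all alternatives the median over the genes ranged from -0.08 to -0.01 for the diets at 2-d and from -0.06 to -0.003 at 4-wk. Both stayed negative but came close to no difference, and in the main fit at 4-wk the median was -0.02 over all genes as well. The median over the ribosomal protein genes ranged from -0.03 to 0.06 for the difference of diet effects. For time it ranged from -0.06 to 0.06 in low-ratio mice and from -0.03 to 0.06 in high-ratio mice. These last 3 changed sign between alternatives. Scaling moved the median of all probe sets by less than 0.1. Of the differences followed under each alternative, these turned. Rpl37a at 2-d was -0.0197 with array weights, -0.00833 with B25 included, -0.000354 with the probe sets averaged and -0.000101 with the replicate block. At 4-wk Rps29 was -0.00333 without A01, A09 and A24 and -0.00111 with the probe sets averaged, and Rps20 was -0.00174 without those arrays and -0.045 with the unmarked probe set. With the unmarked probe set, Rps3 was -0.17 in low-ratio and -0.20 in high-ratio mice over time, Rps9 was -0.14 and -0.20, and Rpl35 was 0.000833 and 0.0546. With the covariate, in low-ratio mice Rps3 was -0.00411, Rps9 -0.0511, Rpl8 -0.0549 and Rps4x -0.0586, and in high-ratio mice Rps9 was -0.0587.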
